A study of Mus musculus with 88 samples.

Results

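The genes described here were expressed in 1 brain region of B6 mice and were, by the rule below, much lower in that region of D2 mice. They were found in the bed nucleus of the stria terminalis (BNST), a forebrain nucleus involved in anxiety, and were then followed in the medial prefrontal cortex (mPFC) and the ventral hippocampus (vHPC). For each gene, reads were scaled to the total count of their library (CPM) and averaged over all 15 B6 and all 13 D2 BNST libraries. Members were chosen by these BNST means: a gene was a member if its B6 mean was at least 1 CPM and, after 0.05 was added to both means, at least 4 times the D2 mean. Ribosomal protein genes and genes of the H2, protocadherin, histone, potassium channel and mitochondrial genome families were left out by symbol, which removed Rpl29 and Rpl3-ps2. There were 73 members among 48795 genes, of which 16238 reached 1 CPM in B6. The same rule with the strains exchanged gave 102 genes. On this scale the median log2 ratio of B6 over D2 was -0.23 over all 16840 genes with at least 1 CPM in a strain. With TMM library sizes the rule gave 91 members instead of 73, so the number of members depends on the scaling.

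The mice were males of the inbred strains C57BL/6Crl (B6) and DBA/2Crl (D2), aged 8 weeks, and each library held RNA of 1 mouse. Controls were not defeated, and the other mice had gone through chronic social defeat stress (CSDS), in which an aggressive mouse repeatedly defeats the test mouse. Defeated mice were called resilient or susceptible by how much they approached an unfamiliar mouse afterwards. BNST libraries of controls came from 5 B6 and 5 D2 mice, those of resilient animals from 5 B6 and 3 D2, and those of susceptible animals from 5 of each strain. For the mPFC these numbers were 6 B6 and 6 D2 controls, 6 resilient B6, and 6 B6 and 8 D2 susceptible animals. For the vHPC they were 6 B6 and 6 D2 controls, 8 resilient B6, and 3 B6 and 5 D2 susceptible animals. The BNST came from other animals, and mPFC and vHPC shared 7 mice.

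Inbred strains are homozygous, so that a sequence variant that reduces the transcription, splicing or stability of an RNA is present on both chromosomes. Strains can also differ in which copies they carry of families with many similar members, such as the KRAB zinc finger genes and the receptors of innate immunity. B6 and D2 are classic laboratory strains that differ at many such sites.

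The BNST libraries held 11825757 to 25793910 counted reads (median 15273698). The median over the members in a BNST library, as log2(CPM + 0.05), lay between 0.61 and 1.53 in B6 and between -2.53 and -1.46 in D2. Summed levels of 5 microglia markers were 154 to 273 CPM in B6 and 132 to 294 CPM in D2, and those of 5 blood markers, one of which is the member Hba-a2, were 37.9 to 177 CPM in B6 and 39.1 to 156 CPM in D2. Those of 8 choroid plexus markers were 13 to 41.6 CPM in B6 and 30.7 to 91.5 CPM in D2, and those of 3 cortical excitatory neuron markers were 10.49 to 634 CPM in B6 and 14.4 to 282 CPM in D2. Striatal markers (7) were 2107 to 4609 CPM in B6 and 706 to 3237 CPM in D2, thalamic markers (6) 175 to 499.7 CPM in B6 and 216 to 2279 CPM in D2, and hypothalamic markers (6) 4.16 to 19.6 CPM in B6 and 4.92 to 77.9 CPM in D2. The part of such differences in the values below was not tested, and fewer cells of a type and less RNA per cell cannot be told apart in tissue samples.

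Noncoding genes and pseudogenes held a larger share of the members than of the expressed genes. Protein coding genes made up 38 of the 73 members (52.1%), against 83.2% of the genes with at least 1 CPM in B6. Long noncoding RNAs, antisense RNAs and processed transcripts together were 16 members (21.9%, against 6.59%). Transcripts of the annotation class TEC, which await experimental proof, were 10 (13.7%, against 6.73%), pseudogenes were 6 (8.22%, against 2.58%), and small RNAs or ribozymes were 3 (4.11%, against 0.871%). These shares were not tested. An annotated gene lay over 28 of the 73 members on the opposite strand. Whether the counting used the strand of a read is not given in the sources used here, so the values of such pairs are uncertain.

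The 2 small nuclear RNAs among the members are shown because their sequence places them among RNAs of the spliceosome, which removes introns. The transcripts, 5′ to 3′ and from GENCODE M21 on GRCm38, are Gm22513 at chr12:54696782-54696945 and Gm25939 at chr1:72255008-72255198, both on the plus strand and both genes of 1 exon. Gm22513 opens as U1 small nuclear RNA does, and the capitals mark the stretch with which U1 pairs with the 5′ splice site. Gm25939 opens as U2 small nuclear RNA does, and the capitals mark the stretch with which U2 pairs with the branch point.
Gm22513: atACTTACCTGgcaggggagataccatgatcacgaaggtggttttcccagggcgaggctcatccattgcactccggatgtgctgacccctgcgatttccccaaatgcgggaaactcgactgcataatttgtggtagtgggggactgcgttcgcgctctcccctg
Gm25939: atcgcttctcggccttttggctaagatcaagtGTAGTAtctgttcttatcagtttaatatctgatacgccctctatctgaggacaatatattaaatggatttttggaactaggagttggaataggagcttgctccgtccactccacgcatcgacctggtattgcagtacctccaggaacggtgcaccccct

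Gm22513 shared 58.3% of its 50-base stretches with other annotated genes, 26 in number, and Gm25939 shared 58.5% with 15. In the BNST, Gm22513 was at 25.7 to 405 CPM in B6 (median 56.5) and at 0.707 to 2.72 CPM in D2 (median 1.33). The strains did not overlap, and 1 susceptible B6 library stood at 405 CPM, where the next B6 library had 134 CPM. Rpph1, the RNA of ribonuclease P, which trims the start of transfer RNAs, was highest in that library too. It was at 155 to 1135 CPM in B6 (median 359) and at 9.5 to 152 CPM in D2 (median 81.2), again without overlap. Without that library the ratio of the strain means was 4.09 for Rpph1 and 42.8 for Gm22513, against 4.69 and 58.5 with it. Gm25939 was at 0.61 to 6.97 CPM in B6 (median 1.81) and at 0 to 0.425 CPM in D2 (median 0.0786), and its strains did not overlap. Rpph1 shared 68.1% of its 50-base stretches with Ccnb1ip1, which overlaps it on the same strand. Ccnb1ip1 had means of 0.00407 CPM in B6 and 0.53 CPM in D2.

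Promoters are shown for 3 coding members of different surroundings: Fggy, which lies near another member, Rec8, which does not, and Krt12, whose promoter lies inside the antisense member A830036E02Rik. The sequences are the 250 bases before the start, 5′ to 3′ in the direction of the gene, from RefSeq on GRCm38.p6. They lie at chr4:95557257-95557506 on the plus strand for Fggy, chr14:55617916-55618165 on the plus strand for Rec8 and chr11:99422260-99422509 on the minus strand for Krt12. Capitals mark matches on either strand to TATAAA, the TATA box, to CCAAT, the CCAAT box, and to GGGCGG, the GC box.
Fggy: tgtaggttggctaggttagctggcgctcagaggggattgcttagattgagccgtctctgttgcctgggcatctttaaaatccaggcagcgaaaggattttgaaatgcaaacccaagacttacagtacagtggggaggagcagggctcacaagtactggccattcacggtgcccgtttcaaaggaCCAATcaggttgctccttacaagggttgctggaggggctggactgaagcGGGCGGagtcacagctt
Rec8: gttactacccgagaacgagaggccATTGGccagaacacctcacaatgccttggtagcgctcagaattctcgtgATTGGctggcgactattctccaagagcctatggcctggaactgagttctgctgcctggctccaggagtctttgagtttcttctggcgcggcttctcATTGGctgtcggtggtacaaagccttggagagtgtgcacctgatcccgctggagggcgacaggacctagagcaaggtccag
Krt12: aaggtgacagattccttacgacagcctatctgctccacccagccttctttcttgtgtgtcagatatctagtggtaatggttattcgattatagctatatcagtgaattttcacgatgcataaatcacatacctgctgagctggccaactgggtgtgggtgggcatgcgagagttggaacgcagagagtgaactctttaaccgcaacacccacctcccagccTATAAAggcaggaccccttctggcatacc

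Fggy had a CCAAT box and a GC box, Rec8 had CCAAT boxes only, and Krt12 had a TATA box only. A promoter window was matched by symbol for 41 of the 73 members, with 52 windows in all. TATAAA was in 13.5% of these windows and in 12.4% of all 32851 windows, CCAAT in 38.5% and 33.8%, and GGGCGG in 30.8% and 32.7%. The E box CACGTG was in none of the 52 windows and in 6.02% of all windows.

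Gramd3, which encodes a protein with a membrane-binding GRAM domain, had the highest ratio of BNST strain means, 153. Its libraries were at 8.76 to 25 CPM in B6 (median 14.7) and at 0 to 0.157 CPM in D2 (median 0.0615), with no read in 6 of the 13 D2 libraries. The antisense RNA A830036E02Rik, with a ratio of 79.1, was at 37.5 to 99 CPM in B6 (median 51.1) and at 0.058 to 2.52 CPM in D2 (median 0.445). No D2 library of either gene reached the lowest B6 library. The processed transcript 1500004A13Rik, with a ratio of 72.4, was at 47.8 to 90.7 CPM in B6 (median 68.1) and at 0.14 to 2.43 CPM in D2 (median 0.761). It shared 33.5% of its 50-base stretches with other genes. Among them is 5830417I10Rik, which overlaps it on the opposite strand and had means of 12 CPM in B6 and 3.22 CPM in D2. Gm9989, another processed transcript, was at 10.66 to 29.3 CPM in B6 (median 16.2) and at 0.123 to 1.57 CPM in D2 (median 0.571). Fggy, a carbohydrate kinase gene, with a ratio of 61.7, was at 4.65 to 15.5 CPM in B6 (median 10.01) and at 0 to 0.636 CPM in D2 (median 0.0615). The strains did not overlap for these 3 genes either. High ratios were also found for 6820402A03Rik (59.5), Gm22513 (58.5), Gm43305 (41.9), Hba-a2 (38.1), Gm5148 (31.1) and Eqtn (27), a gene of the sperm acrosome.

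At the other end, Gm6934 (4.01), Masp2 (4.01) and Pnp2 (4.02) were the members closest to the ratio of 4, and Neurod2 (3.98), A730018C14Rik (3.87) and Gm34302 (3.86) were the genes closest to it from below. Every B6 library lay above every D2 library for 44 of the 73 members and for 0.406% of the genes with at least 1 CPM in B6. The members were selected on these BNST values, which are given as a description and were not tested.

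**Figure D1:**
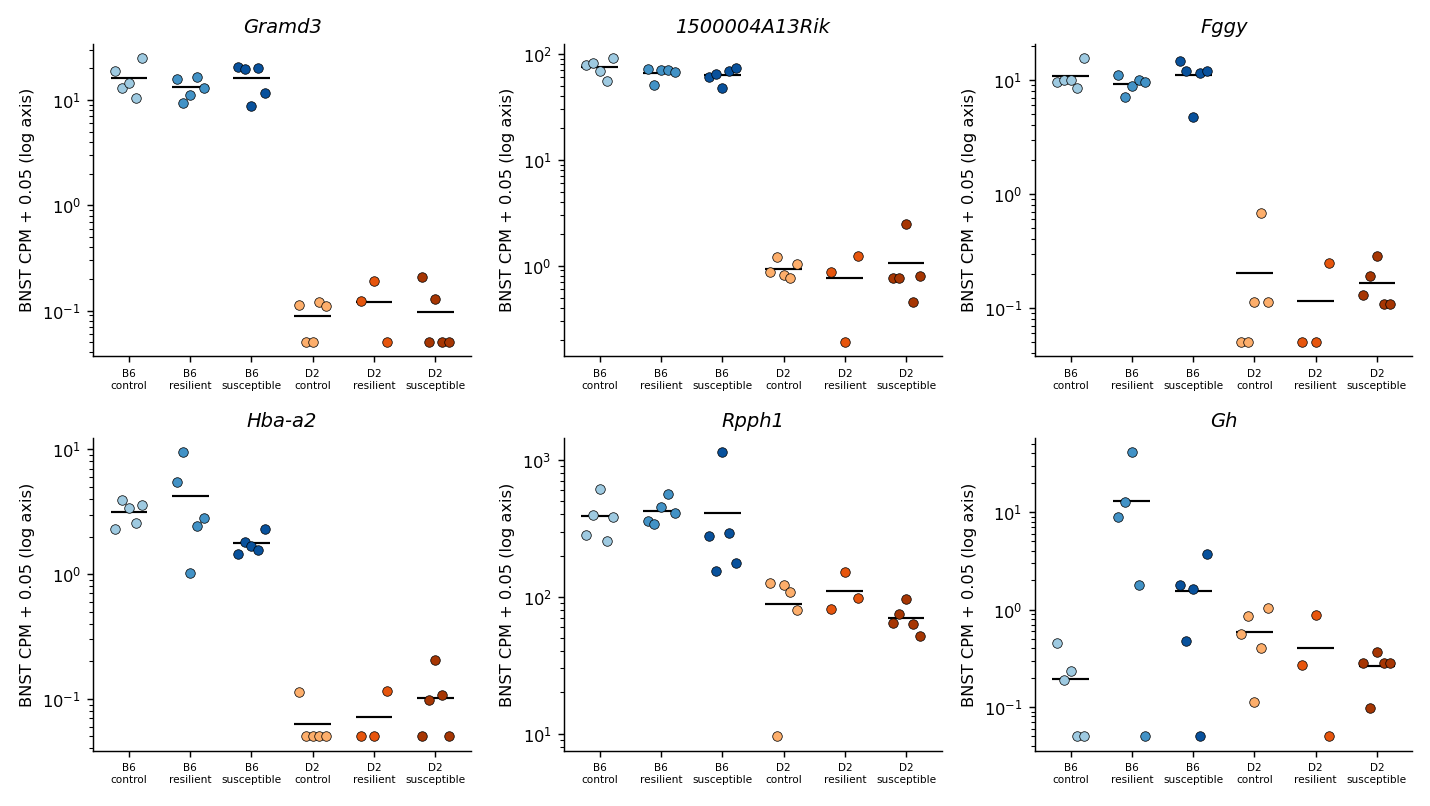
BNST values of 6 members in each library, as CPM + 0.05 on a log axis, by strain and phenotype, with group means as lines. For Gramd3, 1500004A13Rik, Fggy and Hba-a2 all 15 B6 libraries lie above all 13 D2 libraries, 1 susceptible B6 library stands at 1135 CPM of Rpph1, and Gh lies between 0 and 40.9 CPM in B6.

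Per kilobase of exon, the highest mean BNST level in B6 was that of Rpph1 (1275 CPM per kb), followed by Gm22513 (520.2 CPM per kb). All other members were below 14 CPM per kb. The next were Gm25939 (13.7 CPM per kb), A830036E02Rik (10.03), the growth hormone gene Gh (5.6), Pttg1, which encodes the mitotic regulator securin (5.43), and Neat1, the long noncoding RNA on which paraspeckles are built (5.35). Without the highest Gh library, Gh was at 2.62 CPM per kb, below 13 other members. Neat1 was at 66.9 to 227 CPM in B6 (median 103) and at 13.1 to 38.4 CPM in D2 (median 22).

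Sequence shared with other genes was common among the members. At least 50% of the 50-base stretches of the transcripts were found in another annotated gene for 10 members (13.7%, against 3.22% of genes with at least 1 CPM in B6), and at least 10% of them for 28 members (38.4%, against 18%). Hba-a2, an adult alpha globin gene, shared 89.3% of its stretches with Hba-a1. In the BNST, Hba-a2 had a mean of 3 CPM in B6 and 0.0301 CPM in D2, whereas Hba-a1 had 3.51 CPM in B6 and 4.99 CPM in D2. The beta globin gene Hbb-bs had 53.6 CPM in B6 and 60.6 CPM in D2. Neither Hba-a1 nor Hbb-bs was lower in D2. Another beta globin gene, Hbb-bt, had a lower mean in D2 than in B6, and its strains overlapped. Reads of the alpha globin genes cannot be told apart where their sequence is the same.

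In families of innate immunity, single members were low in D2 beside relatives with differences in either direction. Naip6, of a family of sensors of bacterial proteins, had 2.01 CPM in B6 and 0.0357 CPM in D2, and its relatives Naip5 and Naip2 had 1.16 and 1.36 CPM and 1.2 and 1.73 CPM. Trim12a and Trim30d, of the tripartite motif family, had 2.7 and 0.159 CPM and 1.84 and 0.163 CPM, B6 before D2. Trim30a (2.08 and 2.22 CPM) and Trim12c (1.42 and 2.04 CPM), which lie between them, were not higher in B6. Trim34a, the nearest expressed gene on the other side of Trim12a, was higher in B6, with 1.43 and 0.635 CPM. Nlrp1c-ps, a pseudogene of an inflammasome sensor family, had 1.5 and 0.0303 CPM, its relative Nlrp1b, with 1.25 and 0.35 CPM, was also lower in D2 but below the ratio of 4, and Nlrp1a had 0.264 and 0.569 CPM. Mndal, an interferon-inducible gene, had 1.16 and 0.053 CPM, while Aim2, a DNA sensor of the same family, had 2.96 and 4.24 CPM. Ifi203, a relative that overlaps Mndal, had 1.88 and 1.15 CPM.

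By role, 9 members belonged to innate immunity or microglia: Trim12a, Trim30d, Mndal, Naip6, Nlrp1c-ps, the complement receptor gene C5ar2, the complement protease gene Masp2, the immunoglobulin-like receptor gene Oscar and Fcrls, which encodes an Fc receptor-like protein of microglia. Another 7 belonged to muscle, cytoskeleton or matrix: Tnni1 and Tnnt2, which encode slow troponin I and cardiac troponin T, the myosin genes Myo7a and Myo15b, Eps8l1, the corneal keratin gene Krt12 and the collagen gene Col6a4. Germ cells or cell division accounted for Rec8, a cohesin subunit of meiosis, Mcmdc2, which acts in meiotic recombination, Eqtn and Pttg1. Pde6h and Impg1 are photoreceptor genes. Enzymes and transporters were Fggy, Cryzl2, Nat8f4, Pnp2, Abca17 and Mettl11b, and Gh and Nrg4 encode a hormone and a growth factor.

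Members were 0.45% of the genes with at least 1 CPM in B6. Of the gene lists used, 4 of 383 zinc finger genes with at least 1 CPM in B6 were members (1.04%). So were 4 of 76 genes of a list of interferon-inducible, Trim, Naip and Nlr symbols (5.26%: Trim12a, Trim30d, Naip6 and Nlrp1c-ps, with Mndal outside it). Members were also 2 of 47 crystallins, keratins and collagens (4.26%) and 1 of 302 solute carriers and transporters (Abca17). Of 198 listed ion channel and transmitter receptor genes, 0 were members. The member Pkd2l1, a cation channel gene, was outside that list, and the membership rule had left out potassium channel genes. Predicted genes and RIKEN clones were 33 members of 2744 (1.2%). Hba-a2 was the one member among the markers of 15 cell types.

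The members were spread over many chromosomes, though not evenly, and this spread was not tested. No member lay on chromosomes 2, 10, 15, 16 or X, which held 1218, 701, 578, 481 and 530 genes with at least 1 CPM in B6. Chromosome 5 held 1 member among 1235 such genes. The highest numbers were 10 of 1149 such genes on chromosome 1 and 9 each on chromosomes 4, 7 and 11. With neighbouring starts at most 1 Mb apart, 29 members fell into 13 clusters of 2 or more, and 2 of these clusters held 3 or more members.

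The largest cluster was on chromosome 4, from 147492417 to 148615499 on GRCm38, with the zinc finger genes Zfp982 and Zfp984, the coding gene Gm16503 and Masp2. In the BNST of B6 and D2 these had means of 1.58 and 0.272 CPM, 3.05 and 0.255 CPM, 2.06 and 0.163 CPM and 2.19 and 0.509 CPM. The 22 other genes of this stretch with at least 1 CPM in a strain had a median log2 ratio of B6 over D2 of -0.17. Zfp979, between Gm16503 and Zfp984, was higher in D2, with 0.711 and 1.96 CPM, and Zfp933, beside Zfp984, had 28.8 and 29.5 CPM. The long noncoding RNA Gm20707, which overlaps Zfp984 on the same strand, had 1.16 and 0.521 CPM. The members of this stretch were thus interleaved with genes of either direction.

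The other cluster of 3 or more lay on chromosome 17, from 51832819 to 51863217. It held the TEC transcripts Gm6934, Gm37266 and Gm37176, all on the plus strand, with ratios of 4.01, 4.02 and 4.62. Gm37593, a TEC transcript among them, had 4.6 and 1.25 CPM and missed the threshold. Satb1, a chromatin organiser gene on the minus strand that overlaps the start of Gm6934, had 40.8 and 37.8 CPM.

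Tnni1 and Tnnt2 were a pair on chromosome 1, as were Eqtn and Fggy on chromosome 4, Trim12a and Trim30d on chromosome 7, and Zfp125 and 3110053B16Rik on chromosome 12. Krt12 and A830036E02Rik overlap on opposite strands of chromosome 11, and 42% of the 50-base stretches of Krt12 were found in A830036E02Rik. The nearest expressed genes on each side of the members, 133 in all, had a median log2 ratio of B6 over D2 of -0.20, against -0.23 for all 16840 genes with at least 1 CPM in a strain. At least 2-fold higher in B6 were 6 of the 133 neighbours (4.51%, against 1.26% of all genes), and at least 2-fold higher in D2 were another 6 (4.51%, against 2.39%).

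To ask whether the strain difference was present in other animals and regions, D2 and B6 controls were compared in the mPFC and the vHPC. There the deposited values are log2 CPM, adjusted by the authors for batches, and differences are D2 minus B6 on that scale. Reads had been aligned to the same reference genome as those of the BNST, so the regions share any effect of it on D2 values, which was not tested. Low genes had been filtered out of these tables, which held 64 members in the mPFC and 61 in the vHPC, with 58 in both and 6 in neither. A member could pass that filter through its B6 libraries alone, so the counts below describe the measured members and do not speak for the rest.

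In the mPFC, 62 of the 64 measured members were lower in D2 controls at an adjusted p under 0.05 in limma, and none was higher. Of all 18946 genes, 14.4% were lower and 13.4% were higher, 27.8% in all. The median difference over the measured members was -3.29, against 0.00 over all genes. Not called were Gh, at -2.64 (SE 1.34, adjusted p = 0.144), and Masp2, at -0.0011 (SE 0.23, adjusted p = 0.998). In susceptible mice, 61 of 64 were lower in D2, against 9.7% of all genes, with 7.81% higher and 17.5% called in all. There Gh, Masp2 and the antisense RNA Gm16299 were not called. Every B6 library lay above every D2 library for 56 of the 64 members and for 2.57% of all genes. Oligodendrocyte markers moved with strain as well: all 6 were higher in B6 controls, and their sum was 1471 to 2803 CPM in B6 and 976 to 1432 CPM in D2 controls. Their part in the strain differences was not tested.

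Gramd3 had mPFC values of 2.82 to 3.96 in B6 (median 3.5) and of -5.69 to -2.16 in D2 (median -3.34), in log2 CPM. The difference between D2 and B6 controls was -6.96 (SE 0.37, adjusted p = 3.76e-15). Every D2 mouse lay below every B6 mouse. 1500004A13Rik had values of 5.93 to 6.83 in B6 (median 6.391) and of -0.28 to 0.89 in D2 (median 0.18), with a difference of -6.25 (SE 0.15, adjusted p = 2.13e-23). Its strains did not overlap either. The most negative difference was that of the TEC transcript 6820402A03Rik, -7.06 (SE 0.44). Zfp125 (-6.46, SE 0.37), Eqtn (-6.13, SE 0.34), Hba-a2 (-5.93, SE 0.54), Gm22513 (-5.80, SE 0.26), Gm43609 (-5.56, SE 0.51), Fggy (-5.22, SE 0.18) and Nlrp1c-ps (-5.02, SE 0.40) completed the 10 most negative.

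The role groups are set against the 14.4% of all genes that were lower in D2 mPFC controls. By role, 8 of the 9 genes of innate immunity and microglia were lower there, with a median of -4.20, the exception being Masp2. All 6 measured genes of muscle, cytoskeleton and matrix (median -3.08), all 4 of germ cells and cell division (median -4.03), all 4 zinc finger genes and pseudogenes (median -3.61) and all 5 measured enzymes and transporters (median -2.40) were lower. Neat1 was at 5.85 to 6.59 in B6 (median 6.16) and at 3.94 to 4.71 in D2 (median 4.29), with a difference of -1.96 (SE 0.10). Rpph1 was at 8.34 to 9.26 in B6 (median 8.87) and at 6.80 to 8.01 in D2 (median 7.34), with a difference of -1.39 (SE 0.16). Both RNAs were thus still well measured in D2. Fcrls differed by -2.22 (SE 0.10) and Myo7a, an unconventional myosin of sensory hair cells, by -3.62 (SE 0.13).

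**Figure D2:**
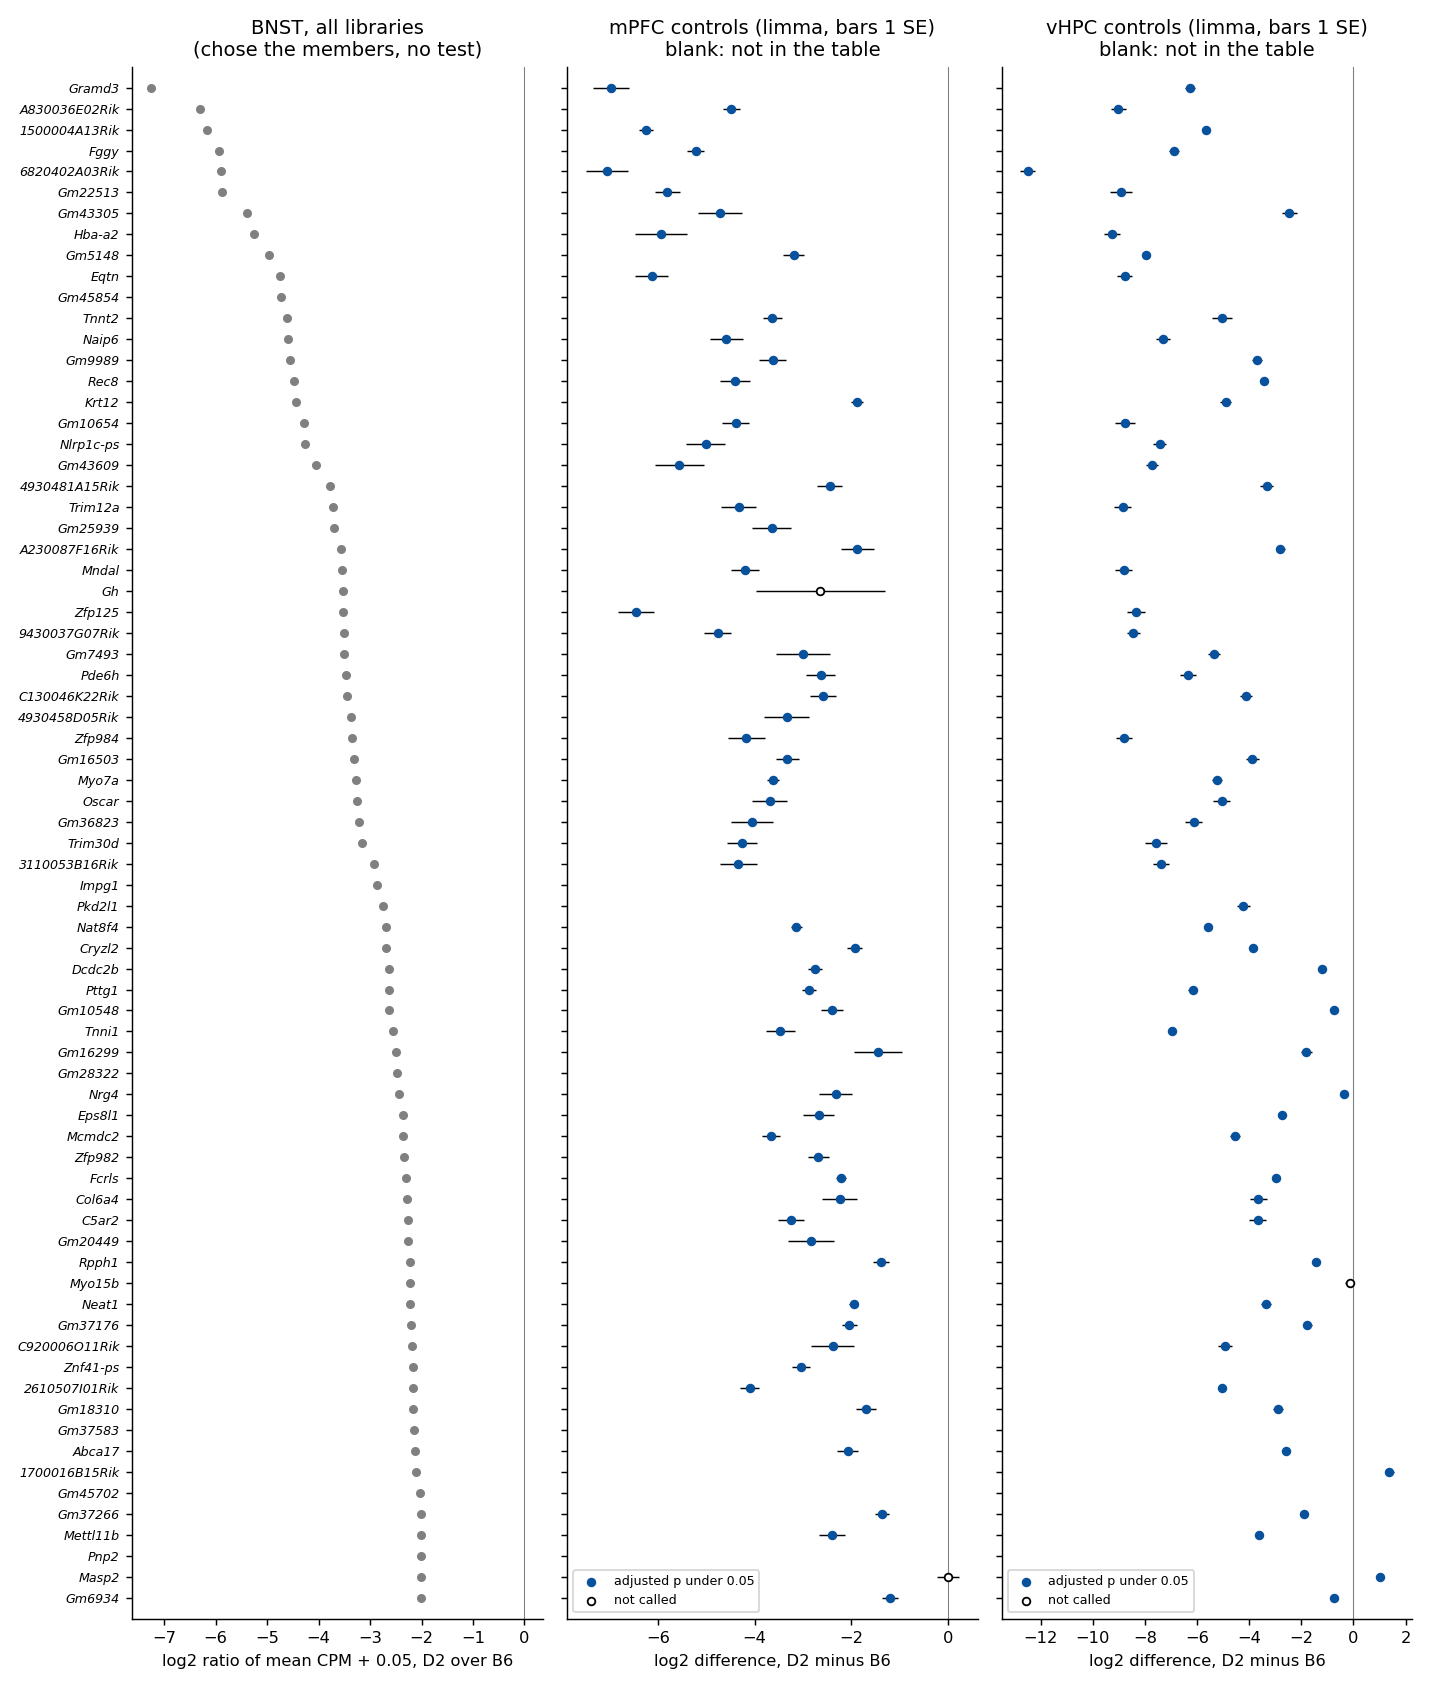
Strain difference of each of the 73 members: the log2 ratio D2 over B6 in the BNST that chose them (grey), and the D2 minus B6 difference in log2 CPM in controls of the mPFC and of the vHPC, with bars of 1 SE and filled points for an adjusted p under 0.05. In the mPFC 62 of 64 and in the vHPC 58 of 61 measured members are called lower in D2, and Masp2 and 1700016B15Rik lie to the right of 0 in the vHPC.

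In the vHPC, 58 of the 61 measured members were lower in D2 controls, 2 were higher and Myo15b was not called, at -0.14 (SE 0.17, adjusted p = 0.489). Of all 19559 genes, 29.1% were lower and 30.2% were higher, 59.3% in all. The median over the measured members was -4.93, and every B6 library lay above every D2 library for 55 of 61 members and for 5.69% of all genes. In susceptible mice 58 of 61 were lower and 2 higher, against 16.1% and 16.5% of all genes (32.7% in all). All 6 oligodendrocyte and all 8 choroid plexus markers were also higher in B6 controls. Their sums were 2854 to 3243 CPM in B6 and 1159 to 1813 CPM in D2 controls for oligodendrocytes, and 42.7 to 2178 and 25.2 to 550.2 CPM for the choroid plexus, and their part in the strain differences was not tested. Of the 58 members measured in both regions, 57 were lower in D2 controls in both. The share of all genes lower in both regions was not computed. In single regions it was 14.4% (mPFC) and 29.1% (vHPC).

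Masp2 and the TEC transcript 1700016B15Rik were higher in D2. Masp2 had vHPC values of 0.05 to 1.10 in B6 (median 0.79) and of 1.03 to 1.86 in D2 (median 1.59), with a difference of 1.03 (SE 0.14, adjusted p = 5.07e-07). 1700016B15Rik had values of -1.93 to -0.43 in B6 (median -0.90) and of -0.20 to 0.69 in D2 (median 0.22), with a difference of 1.39 (SE 0.16, adjusted p = 8.15e-08). The strains overlapped for Masp2 and did not for 1700016B15Rik. In the BNST both had been lower in D2, Masp2 with 2.19 CPM in B6 and 0.509 CPM in D2 and 1700016B15Rik with 1.49 CPM in B6 and 0.309 CPM in D2. Both overlap an abundant gene on the opposite strand: 52.5% of the 50-base stretches of Masp2 were in Tardbp (137 and 160.3 CPM in the BNST of B6 and D2), and 40.8% of those of 1700016B15Rik in Vps35l (43.1 and 57.2 CPM). Myo15b overlaps Recql5 on the opposite strand. The part of the overlap in these values was not tested, and region and library kit, which differed between the 3 regions, cannot be told apart.

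The effect of defeat on the members was then examined within each strain. In the BNST, no member was called by edgeR at an adjusted p under 0.05 in any comparison with controls or in the interaction of strain and stress, and neither was any of the 17515 genes tested (0% in each direction). At an unadjusted p under 0.05 there were 4 of 73 members in resilient B6 mice (1.87% of all genes), 3 in susceptible B6 mice (6.37%), 5 in resilient D2 mice (5.44%) and 5 in susceptible D2 mice (6.03%). In the interaction there were 9 (11.4%). Members had been chosen as low in D2, and few passed the filter when only D2 groups were fitted. The D2 comparisons and the interaction thus rest on few D2 reads, and no conclusion is drawn from their counts. The median differences over the members were -0.08, 0.08, -0.19 and 0.13 in the 4 comparisons. DESeq2 called 1 member, Gh, in resilient B6 mice and 0 in the other BNST comparisons. The neighbouring Gm6934 (0.97), Gm37266 (1.21) and Gm37176 (1.125) were the other members with an unadjusted p under 0.05 in resilient B6 mice, each at an adjusted p of 1 in edgeR.

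Gh, the growth hormone gene of the pituitary, varied widely within B6. Control B6 BNST libraries held 0, 0, 0.141, 0.183 and 0.404 CPM, resilient ones 0, 1.73, 8.94, 12.8 and 40.9 CPM, and susceptible ones 0, 0.423, 1.59, 1.75 and 3.67 CPM. Each of these groups had a library at 0, and 1 resilient library, at 40.9 CPM from 629 reads, held 56.4% of the B6 sum. The log2 difference of resilient mice was 6.73 (SE 1.23), with an adjusted p of 0.161 in edgeR and of 0.00116 in DESeq2. Without the fifth resilient mouse the adjusted p was 0.00806 in edgeR. Without the highest library the ratio of the strain means was 5.46 instead of 11.6. D2 libraries held 0 to 0.984 CPM, and control B6 libraries reached no higher than 0.404 CPM. Prl, another pituitary hormone gene, was at 0, 0, 0.52, 0.711 and 1.32 CPM in the 5 resilient and at 0, 0, 0, 0 and 0.183 CPM in the 5 control B6 libraries. The 3 resilient libraries with the most Gh were those with reads of Prl, and the part of this in the Gh values was not tested.

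In the mPFC no member was called after defeat by limma. Among all genes, 0% were called in resilient B6 and in susceptible D2 mice, and in susceptible B6 mice 0.94% were higher and 1.28% lower (2.22% in all). At an unadjusted p under 0.05 there were 0 of 64 members in resilient B6 mice (3.86% of all genes), 6 in susceptible B6 mice (18.2%), 6 in susceptible D2 mice (3.87%) and 2 in the interaction (9.32%). The median differences were -0.07, -0.14 and -0.16. Most measured members were low in D2 here too, which limits the D2 comparison and the interaction. Tnnt2 was at -0.47 (SE 0.19, adjusted p = 0.183) in susceptible B6 and at -0.54 (SE 0.18, adjusted p = 0.985) in susceptible D2 mice.

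**Figure D3:**
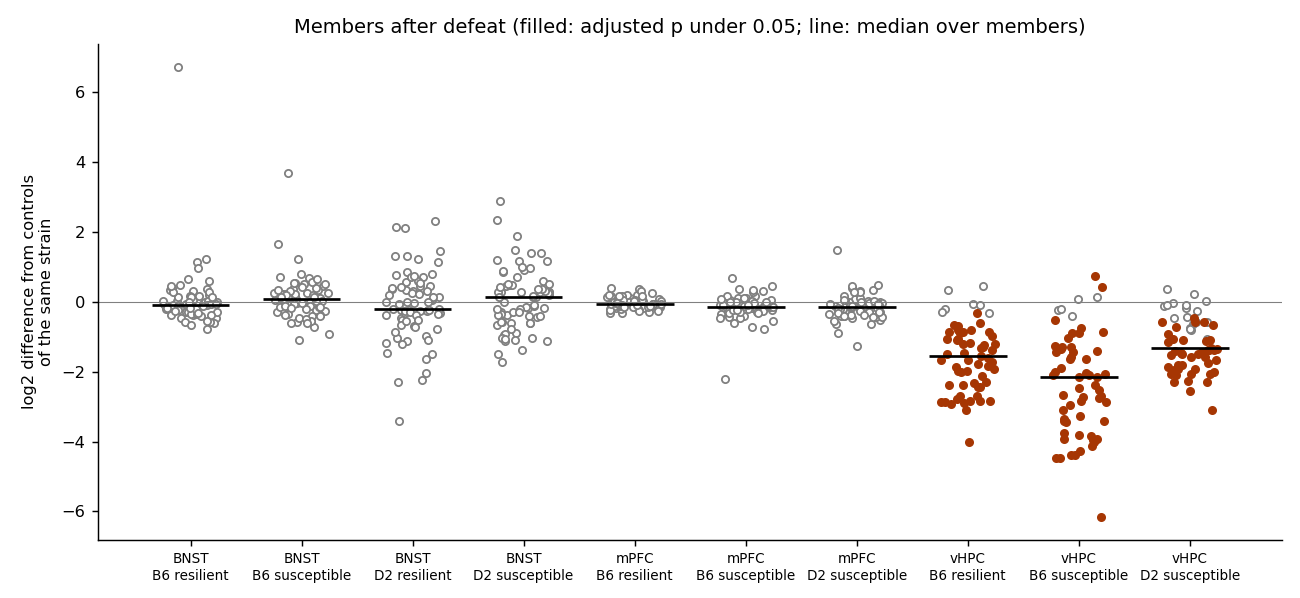
Log2 difference from controls of the same strain for every measured member, by region and phenotype, with filled points for an adjusted p under 0.05 and a line at the median over members. No member is called in the BNST or the mPFC, where the point at 6.73 is Gh, and 54, 56 and 43 members are called in the 3 vHPC comparisons, with medians of -1.55, -2.16 and -1.32.

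In the vHPC most members were lower after defeat. In resilient B6 mice 54 of 61 were lower than in controls and none was higher, against 5.9% and 4.94% of all genes. In susceptible B6 mice 54 were lower and 2 higher, against 20.1% and 20.5% (40.6% in all). In susceptible D2 mice 43 were lower and none was higher, against 2.74% and 1.54% (4.28% in all). The medians over the members were -1.55, -2.16 and -1.32, and those over all genes were between -0.01 and 0.00. Higher in susceptible B6 mice were Masp2, at 0.43 (SE 0.17, adjusted p = 0.0407), and 1700016B15Rik, at 0.74 (SE 0.20, adjusted p = 0.00509). The sets in which the vHPC libraries were prepared followed these groups, and with the set as a covariate 11, 27 and 2 members were called in the 3 comparisons. The share of all genes called with this covariate is not given here. The summed oligodendrocyte markers also moved with these groups, with some overlap of resilient mice and controls, at 2854 to 3243 CPM in B6 controls, 2092 to 3199 in resilient and 1708 to 1955 in susceptible B6 mice, and 998 to 1311 in susceptible D2 mice. Choroid plexus markers were at 37.3 to 1177 CPM in resilient and 27.1 to 84.8 CPM in susceptible B6 mice, and the part of either cell type was not tested.

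1500004A13Rik had vHPC values of 7.82 to 7.97 log2 CPM in B6 controls, 5.85 to 6.18 in resilient B6 mice and 4.99, 5.23 and 5.27 in the 3 susceptible B6 mice. In D2 it had 1.90 to 2.59 in controls and 0.56, 0.59, 0.71, 0.89 and 1.09 in susceptible mice. The 5 groups did not overlap. The differences from controls were -1.86 (SE 0.09, adjusted p = 8.48e-13) in resilient B6, -2.73 (SE 0.12, adjusted p = 5.38e-14) in susceptible B6 and -1.46 (SE 0.10, adjusted p = 1.09e-09) in susceptible D2 mice.

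Tnni1 had values of 3.98 to 4.25 log2 CPM in B6 controls, 1.5 to 2.32 in resilient and 0.21 to 0.47 in susceptible B6 mice. In the same groups, Gm5148 was at 4.73 to 5.5, 1.91 to 2.77 and 1.10 to 1.31, and Nat8f4, an N-acetyltransferase family gene, at 6.09 to 6.23, 4.06 to 4.87 and 3.16 to 3.42. Fggy was at 5.97 to 6.42, 3.78 to 4.42 and 2.53 to 3.08. In each of these genes the B6 groups were separate, with controls highest and susceptible mice lowest. 6820402A03Rik had the widest span of any member, from 7.86 in a B6 control to -8.52 in a susceptible D2 mouse.

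All B6 controls lay above all defeated B6 mice for 44 of 61 members in the vHPC (1.98% of all genes), and for 0 of 64 in the mPFC (0%). All D2 controls lay above all susceptible D2 mice for 30 of 61 members in the vHPC (2.6%), and for 0 of 64 in the mPFC (0.00528%). The difference from controls was more negative in susceptible than in resilient B6 mice for 56 of 61 vHPC members, and these comparisons share the B6 controls. The share of all genes with this direction is not given here. In the vHPC, the means fell from B6 control to resilient to susceptible, then to D2 control and D2 susceptible, for 56 of 61 members. The same order held for 19% of all genes.

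The role groups followed the members as a whole, and of all genes 5.9%, 20.1% and 2.74% were lower in the 3 comparisons. Of innate immunity and microglia, 8 of the 9 genes were lower in resilient and in susceptible B6 vHPC, with medians of -2.33 and -3.42, and 6 of 9 in susceptible D2 vHPC, with a median of -1.67. All 4 genes of germ cells and cell division were lower in the 3 comparisons (medians -1.69, -2.56 and -1.26), as were all 5 measured enzymes and transporters (medians -1.22, -2.07 and -1.11). Of the 7 genes of muscle, cytoskeleton and matrix, 6, 6 and 5 were lower. Neat1 was at -1.05 (SE 0.18), -1.44 (SE 0.24) and -0.72 (SE 0.20), and all were called. Nrg4, a growth factor gene of the epidermal growth factor family, was at -0.09, -0.20 and -0.08 and was not called.

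The interaction compared the change of susceptible D2 mice with that of susceptible B6 mice. In the vHPC it was positive, D2 being less negative, for 20 of 61 members and negative for none, against 0.557% and 0.225% of all genes (0.782% in all), with a median of 1.10. Without 1 susceptible B6 mouse, the first, 6 members were called instead of 20, without the second, 13 were, and without 1 susceptible D2 mouse, the fifth, 11 were. 1500004A13Rik was at 1.27 (SE 0.16, adjusted p = 4.08e-04). Also called were Nat8f4 (1.37, SE 0.21, adjusted p = 0.00244), Fggy (1.76, SE 0.30, adjusted p = 0.00369), Tnni1 (1.46, SE 0.25, adjusted p = 0.0041) and Gramd3 (1.48, SE 0.29, adjusted p = 0.0129).

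The 102 genes of the reverse rule had medians of the other sign after defeat in the vHPC. Of the 74 in the vHPC table, 58 were higher and 1 lower in resilient B6 mice, 60 higher and 3 lower in susceptible B6 mice, and 34 higher and 1 lower in susceptible D2 mice, with medians of 0.62, 0.77 and 0.43. Of all genes, 4.94%, 20.5% and 1.54% were higher and 5.9%, 20.1% and 2.74% were lower. The library sets followed the groups for these genes too. In the mPFC, 1 of 77 was higher and 1 lower in susceptible B6 mice, against 0.94% and 1.28% of all genes. The difference between these genes and the members was not tested.

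In the 7 mice with libraries from both regions, the value of each of 58 members was set against the mean of the other controls of the strain and region. For the 2 resilient B6 mice the mPFC medians of these differences were -0.09 and -0.01. Their vHPC medians were both -1.48, with 57 and 56 of the 58 members below the controls. For the 2 susceptible D2 mice the mPFC medians were 0.30 and -0.34, and the vHPC medians -1.02 and -0.85, with 54 and 53 members below. The defeated mice of both strains thus stood below controls in their vHPC values for most members. The share of all genes below controls in these mice is not given here. For the 2 B6 controls the mPFC medians were -0.12 and 0.10 and the vHPC medians 0.13 and 0.00, and for the D2 control the medians were 0.16 (mPFC) and 0.36 (vHPC).

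**Figure D4:**
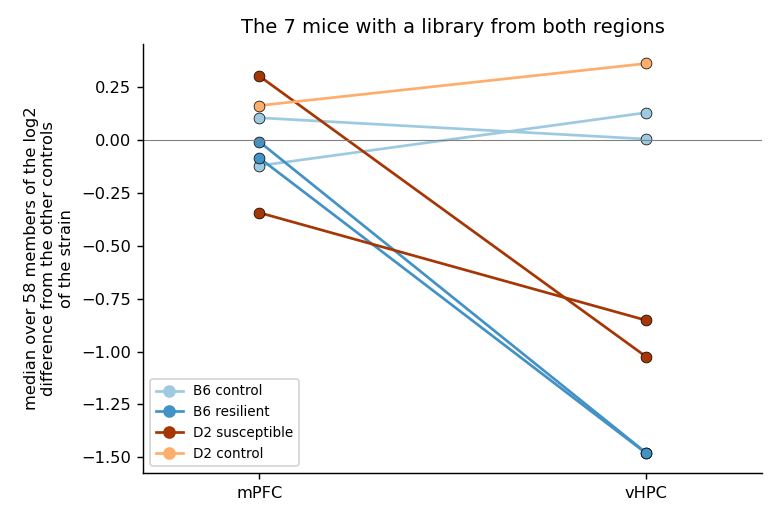
Median over 58 members of the log2 difference from the other controls of the strain, in the mPFC and the vHPC of each of the 7 mice with both libraries, joined by a line. The mPFC points of the 2 resilient B6 mice lie at -0.09 and -0.01 and their vHPC points at -1.48, and those of the 2 susceptible D2 mice at 0.30 and -0.34 (mPFC) and at -1.02 and -0.85 (vHPC).

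The preparation of the vHPC libraries moved with the groups. They were made in 10 sets, of which 0 held B6 controls together with defeated B6 mice and 1 held D2 controls together with defeated D2 mice. For B6, set and defeat therefore cannot be told apart within a set. With the set as a covariate, the B6 differences rest on sets shared with D2 libraries. They assume that a set shifts both strains alike, which was not tested. In the mPFC 4 of 5 sets held controls and defeated mice of a strain, and in the BNST 2 of 2 did. With the set as a covariate, 11 members instead of 54 were called in resilient B6 mice, 27 instead of 56 in susceptible B6 mice, 2 instead of 43 in susceptible D2 mice and 1 instead of 20 in the interaction, with medians of -2.37, -2.76, -0.39 and 2.47. The strain difference in vHPC controls was still called, with 53 members lower and 1 higher. The shares of all genes called in these fits are not given here, so the counts do not show whether members differ from other genes. In the first of 2 sequencing sets were 6 of 6 B6 controls, 1 of 8 resilient and 2 of 3 susceptible B6 mice, 5 of 6 D2 controls and 1 of 5 susceptible D2 mice.

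Some deposited vHPC values of members were very low. Values below -6 log2 CPM were found for 15 of 61 members in susceptible D2 mice, 45 of 305 values, against 0.125% of all values of that group, and in all 5 of these mice for 6820402A03Rik, Hba-a2, Eqtn and Zfp984. The other vHPC groups had 0 such values of members. The part of the batch adjustment, which followed the log transformation, in the vHPC differences was not tested.

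**Figure D5:**
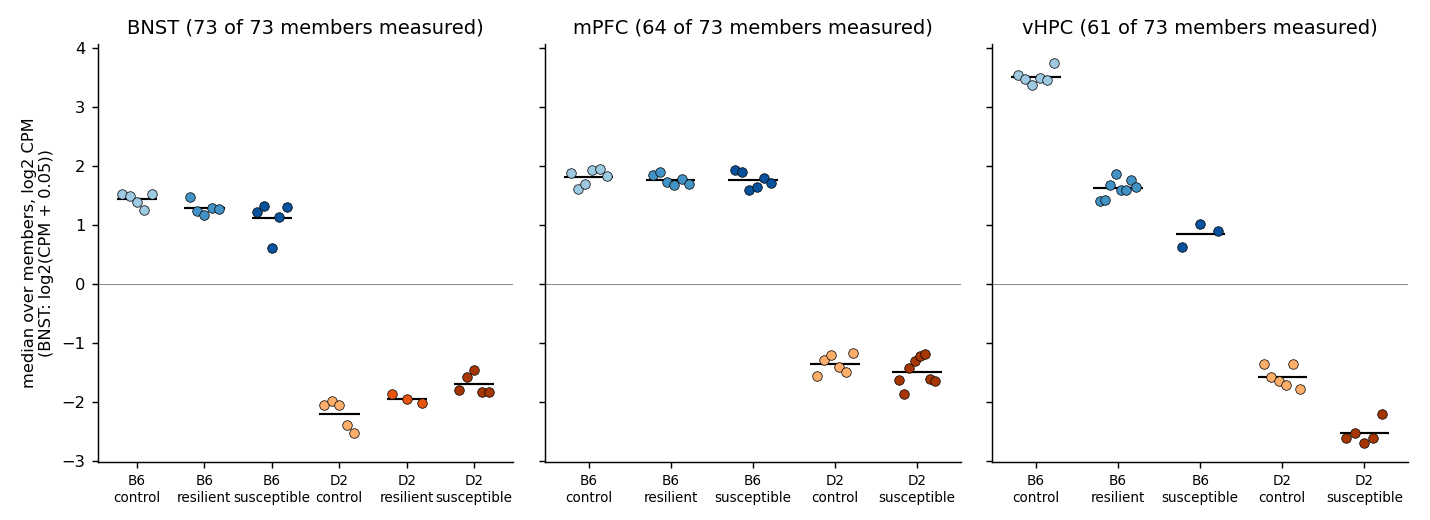
Median over the measured members in each library, in log2 CPM (BNST: log2(CPM + 0.05)), by region and group, with group means as lines. In the vHPC the medians are 3.37 to 3.75 in B6 controls, 1.41 to 1.86 in resilient and 0.62 to 1.02 in susceptible B6 mice, -1.79 to -1.35 in D2 controls and -2.69 to -2.21 in susceptible D2 mice, and in the mPFC they are 1.59 to 1.95 over all B6 groups.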

How the data were processed

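Ribosomal RNA was removed before sequencing of BNST, mPFC and vHPC RNA. The authors trimmed adapters, removed duplicates, aligned with STAR against GRCm38 and assigned reads to exons by HTSeq. Reads of both strains and of every region were aligned to this same reference. How well D2 reads align to it, and the part of this in the strain differences, was not tested. The deposited BNST table holds read counts. The deposited mPFC and vHPC tables hold log2 CPM: the authors kept genes above a low level, applied voom and used ComBat against library preparation batches (and sequencing batches in the vHPC), so these values hold no counts and no interval is given for them.

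The members, gene lists and role groups were chosen with earlier results of these data known. In the BNST, stress comparisons used edgeR 4.0.16 (TMM, robust quasi-likelihood) after a filter of 1 CPM in 6 libraries, which all 73 members passed. In the mPFC and vHPC, limma 3.58.1 with robust empirical Bayes was used (R 4.3.3). Each model held a mean per group over every library of the region. Tests were two-sided, with Benjamini-Hochberg adjustment over all genes of a table. Batches were read from the study's sample list. Alternatives were DESeq2 1.42.0, other filters and covariates, and subsets that omit 1 mouse. Unscaled library sizes, the sequencing set and the mouse ID prefix were added after seeing the data. The count and log2 fits were tested on simulated data.

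Annotation was GENCODE M21, and shared sequence was the share of 50-base stretches of a gene's transcripts found in another gene. Genes were named if among the 12 members highest in B6, the 10 with the highest ratio, the clusters of 3 or more, the calls after defeat (in the vHPC the 4 lowest p in each direction), those higher in D2, the 10 most negative in the mPFC, those nearest the threshold, or 4 of each list. Other genes named were chosen after their values were seen.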

Additional observations from a re-analysis of the deposited data

Results flagged for a closer look

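Among 150 groups of 4 to 10 libraries examined for outlying libraries, 10 held a library far from the rest by Dixon's criterion, and chance flags about 1 group in 20. The third susceptible B6 BNST library held 405 CPM of Gm22513 and 1135 CPM of Rpph1, the highest of its group, and the lowest median over the members, 0.607 on the log2(CPM + 0.05) scale. 1500004A13Rik stood apart at 50.8 CPM in the second resilient B6 and at 2.43 CPM in the third susceptible D2 BNST library. Fggy stood apart at 15.5 CPM in the fifth control B6 and at 0.636 CPM in the fourth control D2 BNST library. Hba-a2 had reads in 1 of 5 control D2 BNST libraries, at 0.0634 CPM, and stood apart at -5.06 log2 CPM in the fourth control D2 mPFC library. Gm22513 stood apart at 2.59 log2 CPM in the seventh susceptible D2 mPFC library.

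The change after defeat differed between the strains in the vHPC for 20 members by the interaction term. Without a given mouse this number was 6 to 22, and with the library set as a covariate it was 1.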

How the results depend on the processing

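No paired analysis was possible because within a region no mouse was in more than 1 group and the labels give no replicate number that links groups. The 7 mice with mPFC and vHPC libraries link regions, not groups. The rule gave 67 to 77 members without each mouse, 91 with TMM library sizes, 109 with controls only and 72 with medians. Without each mouse, members called were 61 to 62 for both strain differences in the mPFC, 60 in vHPC controls, 59 to 60 in susceptible vHPC mice, 49 to 55 in the vHPC of resilient B6 mice, 53 to 55 in that of susceptible B6 mice, 36 to 44 in that of susceptible D2 mice, and 6 to 22 in the vHPC interaction. They were 0 in the BNST and mPFC stress comparisons, except for 1 (Gh, adjusted p = 0.00806 in edgeR) in the BNST of resilient B6 mice without the fifth of them. DESeq2 also called 1 there, and library sizes without TMM, under which the median of all genes in the BNST interaction moved from -0.04 to 0.53, called 2 in it, Myo7a and 4930458D05Rik.

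With a mean log2 CPM of at least 1, 21 members were left in the mPFC, all 21 called in both strain differences, and 23 in the vHPC, all 23 called in both strain differences. Of these 23, 18, 19 and 15 were called in the vHPC comparisons with controls (resilient B6, then susceptible B6, then D2) and 8 in the interaction. In the same order, 11, 27, 2 and 1 were called with the library set as a covariate, and 20, 54, 3 and 8 in sequencing set 1 alone, which held 1 resilient B6 and 1 susceptible D2 library, assumed to vary like the other groups. The cause was not tested, and the shares of all genes called in these fits are not given here. Zfp125 in susceptible D2 vHPC mice turned from -1.59 to 0.52 with the library set as a covariate. When BNST fits held only the D2 groups compared, 6 to 7 members passed the filter. The mPFC strain differences could not be estimated with the mouse ID prefix, since no prefix was shared by both strains.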
